A study of Mus musculus with 15 samples.

Results

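The Six-family genes described here are 5 members of a family of homeobox transcription factors, Six2, Six3, Six4, Six5 and Six6. They were named in advance by symbol, and all 5 were found among the 46517 genes of the RNA-seq count files. The choice was made with the RNA difference between knockout and control kidneys in view, since Six3 stood among the largest increases, so the read counts of the members are given below as a description without a test. The series holds 15 samples of C57BL/6 mouse kidney. RNA-seq was run on 3 controls and 3 knockouts, and reduced representation bisulfite sequencing (RRBS), which reads cytosine methylation in CpG-rich restriction fragments, on 3 controls, 3 knockouts and 3 adults. The controls were Dnmt1 f/f mice at postnatal day 0, which carry floxed alleles of the maintenance DNA methyltransferase Dnmt1 and no Cre. The knockout (KO) mice were Six2Cre Dnmt1 f/f of the same age, and the adults were wild type mice of 6 weeks. In the 5 gene bodies with 5 kb on each side the RRBS files held 1814 of the 4944536 positions read in the series.

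Cre under Six2 acts in the nephron progenitors and their descendants, so ureteric bud, stroma, vessels and blood in the same organ would keep Dnmt1. The labels do not name the Six2Cre line. Because Cre was present in the KO samples and in no other group, an effect of the Cre construct and an effect of Dnmt1 loss cannot be told apart. The labels call the material Six2+ cells, while the extraction protocol names the entire organ, and markers of ureteric bud, stroma, endothelium and blood cells were all read in the controls. The labels do not say that the samples came from separate animals, so p-values measure the spread between these samples, which may be technical.

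Six-family proteins bind DNA through a conserved domain named after the family and a homeodomain and act with Eya and Dach cofactors and with Groucho/Tle repressors. In the kidney Six2 holds nephron progenitors in a self-renewing state. Six3 and Six6 are known for the forebrain, eye and pituitary, and Six4 and Six5 are expressed more broadly, among other places in muscle. Six3 and Six2 are neighbours that lie on opposite strands of chromosome 17, a pairing that is old in vertebrates.

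The sequences of 3 promoters show which CpGs RRBS read deeply enough for use at the genes on which the results turn. Each run is the 250 bases before an annotated transcription start (RefSeq, GRCm38.p6), 5′ to 3′ on the strand of the gene. Capitals mark the CpGs with at least 1 position that had 10 calls or more in every one of the 9 RRBS samples. CpGs in small letters fell short of this limit in at least 1 sample and may still have been read. RRBS fragments begin at CCGG.
Six2 (chr17:85688255-85688504, minus strand): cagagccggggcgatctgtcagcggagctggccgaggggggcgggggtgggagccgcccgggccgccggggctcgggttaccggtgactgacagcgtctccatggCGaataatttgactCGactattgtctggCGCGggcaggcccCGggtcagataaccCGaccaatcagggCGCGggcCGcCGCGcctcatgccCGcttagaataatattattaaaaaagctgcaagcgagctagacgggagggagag
Six3 (chr17:85620584-85620833, plus strand): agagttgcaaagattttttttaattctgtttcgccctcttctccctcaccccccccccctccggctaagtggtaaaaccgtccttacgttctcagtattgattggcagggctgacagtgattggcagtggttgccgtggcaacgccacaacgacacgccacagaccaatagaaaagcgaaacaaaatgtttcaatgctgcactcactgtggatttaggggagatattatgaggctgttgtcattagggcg
Six6 (chr12:72939632-72939881, plus strand): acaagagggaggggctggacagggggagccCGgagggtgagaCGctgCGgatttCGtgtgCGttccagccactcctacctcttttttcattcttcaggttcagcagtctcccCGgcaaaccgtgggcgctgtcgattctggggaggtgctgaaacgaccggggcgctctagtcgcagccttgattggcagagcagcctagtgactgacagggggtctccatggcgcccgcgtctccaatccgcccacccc
The Six2 window held 26 CpGs and 5 CCGG sites, and 12 of its CpGs met the limit of 10 calls. The Six3 window held 10 CpGs and 1 CCGG site, and none of its CpGs met the limit. The Six6 window held 17 CpGs and 3 CCGG sites, with 6 CpGs that met it. Over 32817 mouse promoter windows of the same length the median was 6 CpGs, and 47.0% held CCGG, searched as these letters, which read the same on both strands.

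RNA depth was 26773937 to 34102567 reads assigned to genes per sample. Dnmt1, the targeted gene, had 175 ± 16.6 CPM (counts per 1000000 reads, scaled by TMM) in controls against 105 ± 9.57 CPM in the KO group (SD, n = 3 each), with a log2 fold change of -0.74 (SE 0.12, edgeR adjusted p = 0.00577). Among the cell type marker lists those of differentiated tubules had the largest shift, a median log2 fold change of -3.32: all 8 were lower in KO, and their summed level was 417 to 499 CPM in KO against 2750, 2828 and 4857 CPM in controls 1, 2 and 3. Control 3 thus had the most tubule marker reads, and it is the control with the fewest Six2 reads. In bulk samples fewer cells of a type and less RNA per cell cannot be told apart. Over all 18132 genes tested 6.36% were higher and 8.23% lower at an edgeR adjusted p under 0.05. These shares stand beside each count of list genes called. RRBS held 18424875 to 88765177 calls per sample, lowest in KO 3.

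Six2, the progenitor factor whose regulatory elements drive the Cre, was read 3218, 3307 and 1523 times in controls 1 to 3 and 2710, 2860 and 2757 times in KO samples 1 to 3. Scaled to library size this was 98, 107 and 41.4 CPM in controls and 84.4, 93.8 and 105 CPM in KO samples. The groups overlapped, with control 3 far below the other 5 samples. Controls averaged 82.2 ± 35.6 CPM and the KO group 94.3 ± 10.2 CPM (SD, n = 3 each), a log2 fold change of 0.20 (SE 0.31). Without control 3 the log2 fold change was -0.12, so the sign of the Six2 difference rested on that library.

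Six3, the forebrain and eye gene, was listed at 0 reads in each of the 3 controls and at 803, 897 and 766 reads in the KO samples. The KO values were 25, 29.4 and 29.1 CPM, close to each other, with a mean of 27.8 ± 2.45 CPM (SD, n = 3). Taking 3 reads per library as the most that a count of 0 allows, which is 0.0900 CPM on average over the controls, Six3 was at least 309-fold higher in KO samples. This limit covers counting error only. Six3os1, an annotated RNA that runs antisense to Six3 and overlaps it on the Six3 side of the locus, had 1 read in each control and 72, 77 and 49 in the KO samples. Its ratio of scaled reads was 74.6, with a 95% counting interval of 25.2 to 365 from 3 control and 198 KO reads. Six3os1 passed the filter on low counts through the KO group and overlaps the gene the members were chosen on, so no test is given for it. Whether reads were counted by strand is not given in the sources used here, so reads of Six3 and of Six3os1 in their shared part cannot be told apart.

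Six4 had 602, 480 and 393 reads in controls and 665, 580 and 493 reads in KO samples. As CPM these were 18.3, 15.5 and 10.7 for controls, against 20.7, 19 and 18.7 for KO samples. Every KO sample lay above every control, with means of 14.9 ± 3.87 and 19.5 ± 1.07 CPM (SD, n = 3 each) and a log2 fold change of 0.39 (SE 0.21). Control 3 was again the lowest, and without it the log2 fold change was 0.20.

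Six5 differed least among the members that were read in both groups. Its counts in controls were 1666, 1465 and 1970, and in the KO samples 1406, 1475 and 1341. The means were 50.6 ± 3.07 and 47.7 ± 3.62 CPM (SD, n = 3 each), the groups overlapped, and the log2 fold change was -0.08 (SE 0.11).

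Six6, the other forebrain and eye member, was listed at 0 reads in all 6 samples, and 3 reads would be 0.0815 to 0.114 CPM. Six6 did not pass the filter on low counts, while 4 of the 5 members did. Among those 4, Six3 and Six4 had groups that did not overlap, against 34.4% of the 18132 genes tested, a share from which nothing is read here because the members were picked on this contrast. Since lengths differ between genes and were not used, the levels of different members are not ranked against each other.

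**Figure D1:**
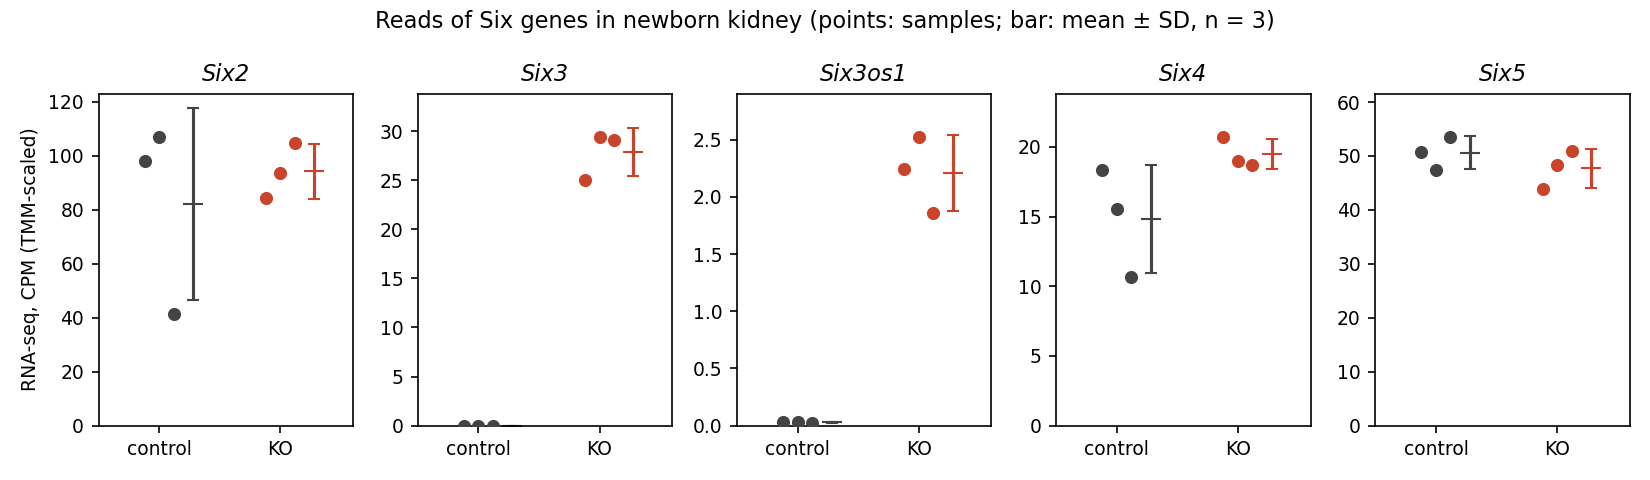
RNA-seq reads per 1000000 (CPM, vertical axis, starting at 0) of Six2, Six3, Six3os1, Six4 and Six5 in 3 control and 3 KO kidneys, with points for samples and bars for mean ± SD. Six3 sits at 0 in the controls and at 25 to 29.4 CPM in KO, and the low Six2 point is control 3 at 41.4 CPM.

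Apart from Six3os1, none of the tested genes within 500 kb of Six2 or Six3 was called higher. There were 5 tested in all, Six3os1 among them. Six3os1 passed the filter on low counts through the KO group, so its call is no support. Camkmt had a log2 fold change of -0.09 (edgeR adjusted p = 0.823), Srbd1 of -0.06 (adjusted p = 0.848), Gm29418 of 0.20 (adjusted p = 0.772) and Prkce, a protein kinase C, of -0.41 (adjusted p = 0.211). Without control 3 the number of lower neighbours was 1, Prkce, in place of 0. Over all genes tested 6.36% were higher and 8.23% lower at an adjusted p under 0.05. Near the members on other chromosomes the median log2 fold change was 0.36 over the 9 tested genes around Six4, 0.45 over 9 around Six6 and 0.02 over 34 around Six5. The genes called higher were 3, 3 and 1 of these, and 0 were lower. Six4 and Six6 lie within the same stretch of chromosome 12, so their neighbours are partly the same genes.

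Partners of the Six-family proteins were read at similar summed levels in both groups, 1189 to 1366 CPM in controls and 1189 to 1253 CPM in KO samples. Of the 14 cofactor genes, all tested, 2 were higher and 0 were lower, beside 6.36% and 8.23% of all genes tested. Their median log2 fold change was 0.13, beside -0.00 over all genes. Dach2 rose from 6.49 ± 1.14 to 11.3 ± 0.645 CPM (SD, n = 3 each), a log2 difference of 0.80 (SE 0.20, edgeR adjusted p = 0.0313). Eya1, the phosphatase and coactivator that acts with Six2 in progenitors, rose from 40.7 ± 9.81 to 64.1 ± 7.82 CPM, by 0.65 on the log2 scale (SE 0.18, edgeR adjusted p = 0.0463). The count of higher cofactors was 0 when control 1 or any single KO sample was left out, and 3 higher and 2 lower without control 3. Pax2 and Pax8, which the kidney needs to form, had log2 fold changes of -0.22 and -0.24 with edgeR adjusted p = 0.334 and 0.257.

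Genes of the nephron progenitor, the cell that Six2 marks, went both ways. Of 20 genes, all tested, 4 were higher and 4 lower, beside 6.36% and 8.23% of all genes tested. The median log2 fold change was 0.08. The summed level of the 20 overlapped between controls (1034 to 1240 CPM) and KO samples (1092 to 1193 CPM). Cited1, a marker of the least committed progenitors, fell from 41.9 ± 22.8 to 7.22 ± 1.52 CPM (SD, n = 3 each), by 2.53 on the log2 scale (SE 0.42, edgeR adjusted p = 0.00556). Tmem100, Itga8 and Wt1 fell by 1.32, 0.79 and 0.59. Fgf20, a growth factor of progenitors, had 5, 9 and 27 reads in controls against 161, 152 and 57 in KO samples, and it passed the filter on low counts through the KO group, so its call is no support. Osr1, Hoxc11 and Eya1 rose by 0.95, 0.84 and 0.65. The count of higher progenitor genes was 1 when control 1 or any single KO sample was left out, and 6 without control 3. Podocyte markers, among which Wt1 is often counted, and endothelial markers moved with the lower genes, with 6 of 7 and 5 of 7 lower. The summed endothelial level was 799 to 1136 CPM in controls and 482 to 620.4 CPM in KO samples, and the part of these cells in the progenitor result was not tested.

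Early nephron genes, which come on as Six2 is switched off in differentiating cells, were called lower or were not called. Of 17 genes, all tested, 8 were lower and 0 higher, beside 8.23% and 6.36% of all genes tested. The median log2 fold change was -0.46. The 9 genes not called went both ways. Dll1, Bmp2, Jag1, Wnt4 and Cdh6 had log2 fold changes of 0.53, 0.25, 0.24, 0.08 and 0.02. Fgf8, Pax8, Ccnd1 and Hey1 were at -0.46, -0.24, -0.16 and -0.07. For Dll1 every KO sample lay above every control. The segmentation genes Irx2, Irx1 and Irx3 fell by 2.52, 2.29 and 0.65 on the log2 scale. Hnf4a, needed for proximal tubule, fell by 1.81, Pou3f3 by 0.81 and Lhx1 by 0.74. The count of lower genes was 5 without control 1, KO 1 or KO 2, and without control 3 it was 9, with 2 higher. The tubule and podocyte marker reads moved with the lower genes, with 8 of 8 and 6 of 7 lower. Their part in the early nephron result was not tested.

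The genes that accompany Six3 and Six6 in the eye field and anterior forebrain mostly had too few reads to be tested. Of 22 such genes only 4 passed the filter on low counts, and Gsx2, Nkx2-1 and Otx2 were at 0 in all 6 samples. The summed level of the 22 was 2.96 to 4.51 CPM in controls and 8.74 to 12.1 CPM in KO samples. Shh had the largest part, at 3.47, 2.10 and 2.23 CPM in controls 1 to 3 and 7.51, 8.49 and 3.84 CPM in KO samples 1 to 3. Lhx2 had 2 to 3 reads in controls and 15 to 31 in KO samples (log2 fold change 3.31, SE 0.53). Pax6 had 4 to 17 reads in controls and 42 to 56 in KO samples (log2 fold change 2.51, SE 0.53), and Shh, also made by the ureteric epithelium and urothelium, rose by 1.35. Lhx2 and Pax6 passed the filter on low counts through the KO group, so no test is given for them. A gene that passes through the KO group alone had to differ, so the share called among these 4 is no support. Without control 1 or without KO 1 the count of higher genes was 1 in place of 3. Ureteric bud markers moved with them, 4 of 10 higher and 0 lower, with a summed level of 655 to 787 CPM in controls and 900.3 to 1317 CPM in KO samples. Of the stroma markers 3 of 9 were called higher and of the leukocyte markers 2 of 7, with 0 called lower in each. Both lists were mixed. The stroma markers Pdgfrb and Acta2 and the leukocyte marker Csf1r had log2 fold changes of -0.52, -0.38 and -0.58. For these genes the groups did not overlap, although none was called. The summed levels of both lists overlapped between the groups. The part of these cell types was not tested.

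Skeletal muscle genes, which Six4 is known to regulate in muscle, gave 1 higher and 0 lower of 7 tested out of 13. Over all genes tested the shares were 6.36% and 8.23%. Des, the intermediate filament desmin, rose from 36.7 ± 6.29 to 65.5 ± 2.24 CPM (SD, n = 3 each), a log2 fold change of 0.84 (SE 0.14, edgeR adjusted p = 0.00612). KO 1 had the highest summed muscle reads, 177 CPM against 77.1 and 78.9 CPM in the other KO samples and 37.4 to 78.8 CPM in controls. Des alone was at 64.2, 68.1 and 64.3 CPM in KO samples 1 to 3, most of the sum in KO 2 and KO 3. Des did not share the excess of KO 1. In the other 6 genes tested, Ckm, Acta1, Myh3, Mylpf, Ttn and Tnnt3, the groups overlapped and none was called. The myogenic factors Myod1, Myf5, Myf6 and Myog did not pass the filter.

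The genes whose levels ran most like Six2 over the 6 RNA samples were Nifk, Cops2, Hsd17b11, Colgalt1 and Rpl7, with Pearson r of 0.996 to 0.999 on the log2(CPM + 1) scale. Each was lowest in control 3, as Six2 was, and 54 genes reached an r of 0.99. Most like Six3 were AF067061, Tuba3a, Pet2, Tuba3b and Usp17lb, each listed at 0 to 0.0609 CPM in the controls and at 10.8 to 66.3 CPM in the KO samples. For Six3 59 genes reached an r of 0.99, a measure that a split into 3 samples near 0 and 3 high samples brings close to 1. Tuba3a and Tuba3b are near-identical copies, and their separate counts are uncertain.

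RRBS read more DNA at Six2 and Six3 in the KO samples than in the other groups. Over Six2 and 5 kb on each side (chr17:85657736-85693254, 360 positions), calls per 1000000 were 160, 176 and 188 in controls, 319, 319 and 305 in KO samples and 184, 194 and 194 in adults. No KO sample came near the other 6, and the ratio of KO to control means was 1.80 (174.6 ± 14.0 against 314 ± 7.91, SD, n = 3 each). Over Six3 (chr17:85608608-85631191, 338 positions) calls per 1000000 were 198, 194 and 188 in controls, 258, 266 and 257 in KO samples and 206, 194 and 215 in adults, a ratio of 1.35. For both genes the exact two-sided permutation test gave p = 0.1, the smallest it can give with 3 against 3, and 0.25 after adjustment over the 5 members.

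The members elsewhere did not show this. Six4 had a ratio of 1.01 (exact permutation p = 0.8) and Six6 of 0.978 (exact permutation p = 0.8). Six5 had calls per 1000000 of 36.9, 41.1 and 37.1 in controls, 49.9, 38.6 and 59.3 in KO samples and 57.7, 51.1 and 50.1 in adults, so its ratio of 1.29 came with overlapping groups and equally high adults. Over 16843 gene intervals made the same way the median ratio was 0.999, 90% of them lay between 0.853 and 1.18, and in 5.22% every KO sample was above every control. A ratio of at least 1.5 with no overlap, as at Six2, was found in 0.226% of the intervals.

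**Figure D2:**
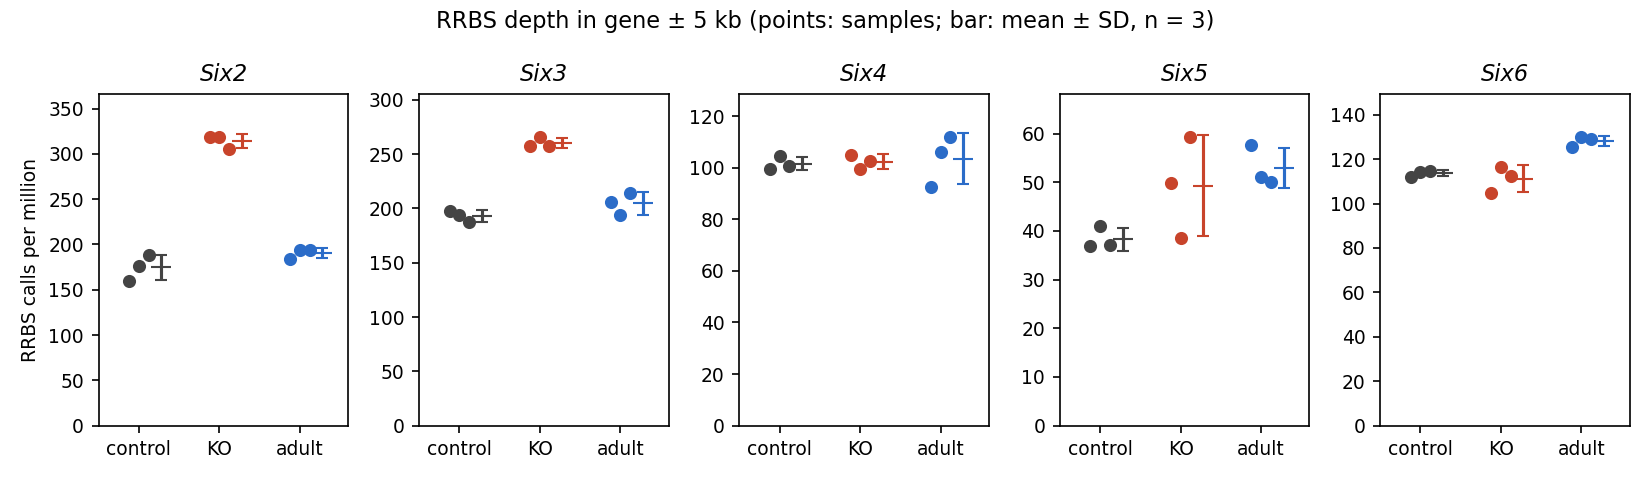
RRBS calls per 1000000 (vertical axis, starting at 0) over each Six-family gene with 5 kb on each side in 3 controls, 3 KO samples and 3 adults, with points for samples and bars for mean ± SD. Six2 in KO lies at 305 to 319 against 160 to 194 in the other samples, Six3 in KO at 257 to 266 against 188 to 215, and the other genes have KO ratios of 0.978 to 1.29.

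The extra reads formed 1 block around Six2, whose edge on the Six3 side was not fixed by the data. In bins of 20 kb with at least 5 positions, 7 consecutive bins from 85640001 to 85780000 had KO calls at least 1.5 times the controls with no overlap, at ratios of 1.62 to 2.19, while the bin after them was at 0.985 and the 2 bins before them, which hold Six3, at 1.30 and 1.44. Of 51246 such bins in the genome 0.995% met this rule, and the run at Six2 was the longest, the next having 2 bins. The same rule for adults against controls gave 1.8% of bins and no run over 3. The 1.5-fold limit and the 5 positions were set after the depth at Six2 had been seen.

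A single raised stretch fitted to these data, also after seeing them, reached from 85616616 to 85781717 on chromosome 17, 165102 bases with 649 positions. Relative to the control mean the KO samples were at 1.77, 1.77 and 1.63 and the adults at 1.07, 1.07 and 1.12. The KO mean was 1.72 ± 0.0818 (SD, n = 3), while the flanks were at 1.04 on the Six3 side and 1.01 on the Six2 side. Up to the end of Six3 the ratio was 1.5, and beyond it 1.81. The right edge was 85781717 in each of the 9 fits made, whereas the left edge moved to 85625292 or 85633332 in some. The fits thus do not fix how much of Six3 lies inside the fitted stretch. From 85616616 to the end of Six3 the KO samples were at 1.48, 1.59 and 1.44 times the control mean. The controls were at 0.994, 0.976 and 1.03 there, so the Six3 part had extra reads in KO too.

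**Figure D3:**
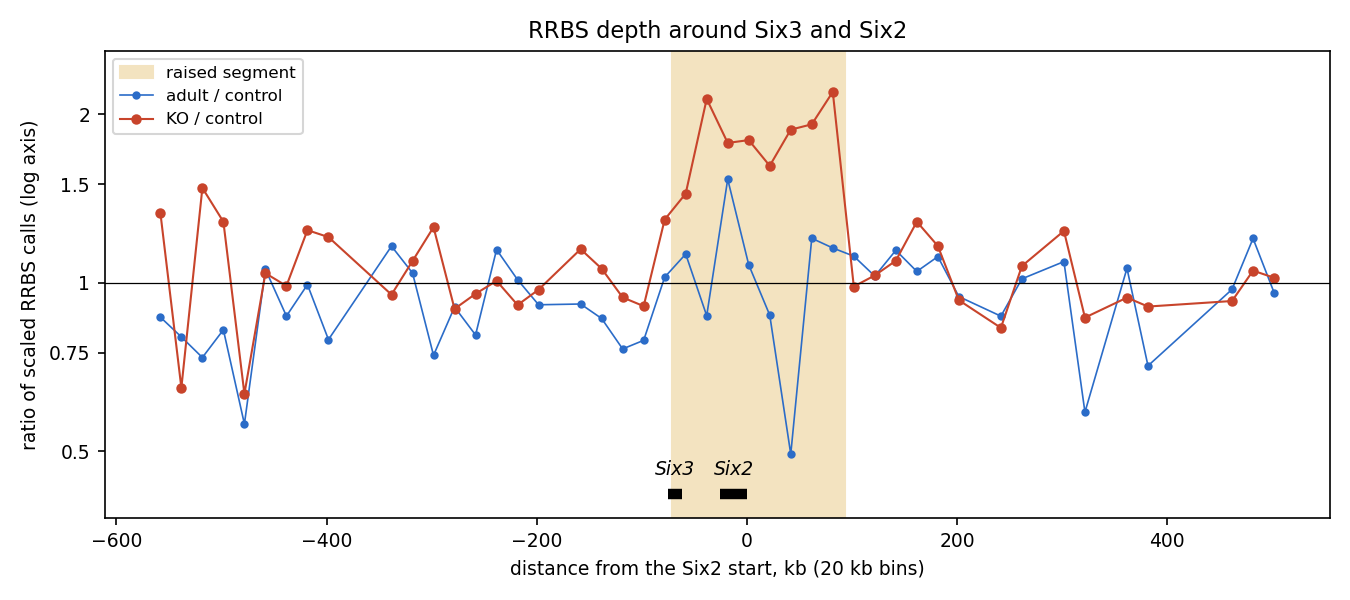
Ratio of scaled RRBS calls (vertical log axis) in bins of 20 kb against distance from the Six2 start in kb, for KO over control and adult over control, with bins under 5 positions skipped. Inside the shaded stretch, whose left edge moved between fits, the KO ratio reaches 2.19, and it returns to 0.985 in the bin after it.

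At 2 places the reads departed further, and both were picked after their values were seen. At chr17:85654839-85654878, between Six3 and Six2, calls at 2 positions were 4, 9 and 4 in controls, 50, 46 and 15 in KO samples and 16, 8 and 18 in adults, a scaled KO ratio of 9.52. All 17 control calls there were methylated, against 15.3% of the 111 KO calls. Just past the right edge, at chr17:85785492-85785635, calls at 5 positions were 107, 226 and 101 in controls, 28, 54 and 11 in KO samples and 122, 149 and 238 in adults, a ratio of 0.304. A Six2Cre line in wide use was made from a bacterial artificial chromosome that carries the Six2 locus, and whether it was the line used here is not given in the sources used here. The part of a transgene in the extra RRBS reads or in the Six3 RNA reads was not tested.

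Methylation over the Six-family genes was low in all groups except at Six4, as is usual for CpG-rich developmental genes. Each mean was taken over the positions that had 10 calls or more in every one of the 9 samples, and the KO and adult differences from control share the same controls. The KO samples lay below every control at 3 of the 5 genes, Six2, Six4 and Six5, against 76.8% of 13809 gene intervals. Among the 2320 intervals with a control mean under 10%, as at 4 of the Six-family genes, the share was 20.6%. No member was higher with no overlap in KO, against 0.543% of intervals.

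At Six2 mean methylation over 112 positions was 3.16%, 4.14% and 3.70% in controls, 2.24%, 2.80% and 2.39% in KO samples and 4.61%, 4.05% and 4.86% in adults. All KO samples were below all controls (3.67% ± 0.489 against 2.48% ± 0.290, SD, n = 3 each, exact two-sided permutation p = 0.1, 0.167 after adjustment over 5 genes). Over these positions the difference lay in the gene body, at 6.25% in controls and 3.82% in KO samples, while the 61 upstream ones were at 1.51% and 1.35%. The upstream position 85690500 had too few calls in adults to be among them, and it was called lower in KO. In the promoter window shown above the read positions averaged 0.671% to 2.02% in controls, 0.744% to 1.23% in KO samples and 0% to 0.641% in adults, so the Six2 promoter was nearly unmethylated in all 9 samples. One promoter position, 103 bases before the start, was singled out after its values were seen and had at least 13 calls per sample. It read 21.4%, 14.8% and 4.76% in controls, with 2.63%, 7.41% and 0% for KO and 0% in all adults. The position beside it, 104 bases before the start, is the other strand of the same CpG. Control values there were 2.44%, 8.82% and 2%, while KO values were 2.38%, 1.61% and 9.68%, so that strand did not show the difference. Of the 10 Six2 positions at 10% or more in controls, 7 sat about 7 to 9 kb inside the gene. A group of 25 positions at chr17:85680774-85681144 averaged 5.76%, 7.49% and 5.37% in controls, 3.74%, 2.34% and 1.41% in KO samples and 15.5%, 18.7% and 21.1% in adults. Adults were thus above all newborn samples there, in a group singled out after its values were seen.

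At Six3 mean methylation over 90 positions was 3.48% ± 0.205 in controls, 3.27% ± 0.0988 with KO and 4.76% ± 0.428 in adults (SD over 3 samples). Controls and KO samples overlapped (exact two-sided permutation p = 0.2), and the KO difference of -0.21 points became 0.20 with at least 20 calls per position and 0.57 with calls pooled. The 16 upstream positions were at 1.69% in controls and 2.72% in KO samples, and the positions within the annotated gene at 1.89% and 2.10%. In both of these parts the groups overlapped. The 6 downstream positions were at 24.0%, 22.9% and 31.6% in the controls and at 16.2%, 15.5% and 22.3% in the KO samples. In this part the KO values were all lower than the control values. The annotated gene begins at 85613608, before the promoter window shown above, so many of its positions lie upstream of that window. No CpG of the window had 10 calls or more in all 9 samples. All adults lay above all controls (exact permutation p = 0.1, 0.333 adjusted), against 14.4% of gene intervals and 12.6% of those with a control mean under 10%.

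Six4 carried the most methylation, 18.4%, 18.0% and 17.8% in controls, 14.8%, 10.6% and 15.9% in KO samples and 19.3%, 20.2% and 18.2% in adults over 38 positions. KO samples were below all controls by -4.32 points on average (exact two-sided permutation p = 0.1, 0.167 adjusted), beside a median of -4.45 points over intervals with a control mean of 10% to 25%. The size of the difference ran from -10.6 points with calls pooled to -2.35 points with at least 5 calls per position. Six5, with only 13 positions, all upstream, was at 7.18%, 6.81% and 9.68% in controls against 5.68%, 4.23% and 4.41% in KO samples (exact permutation p = 0.1, 0.167 adjusted). Its difference of -3.12 points was -0.70 with flanks of 2 kb, and its adults, at 4.31% to 7.78%, overlapped both groups. Six6, without reads in RNA, was as unmethylated as Six2 and Six3, with 2.03% ± 0.304 in controls, 2.02% ± 0.397 in KO samples and 1.87% ± 0.619 in adults (SD, n = 3 each), and all groups overlapped. Its promoter window averaged 0% to 2.11% in all 9 samples.

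**Figure D4:**
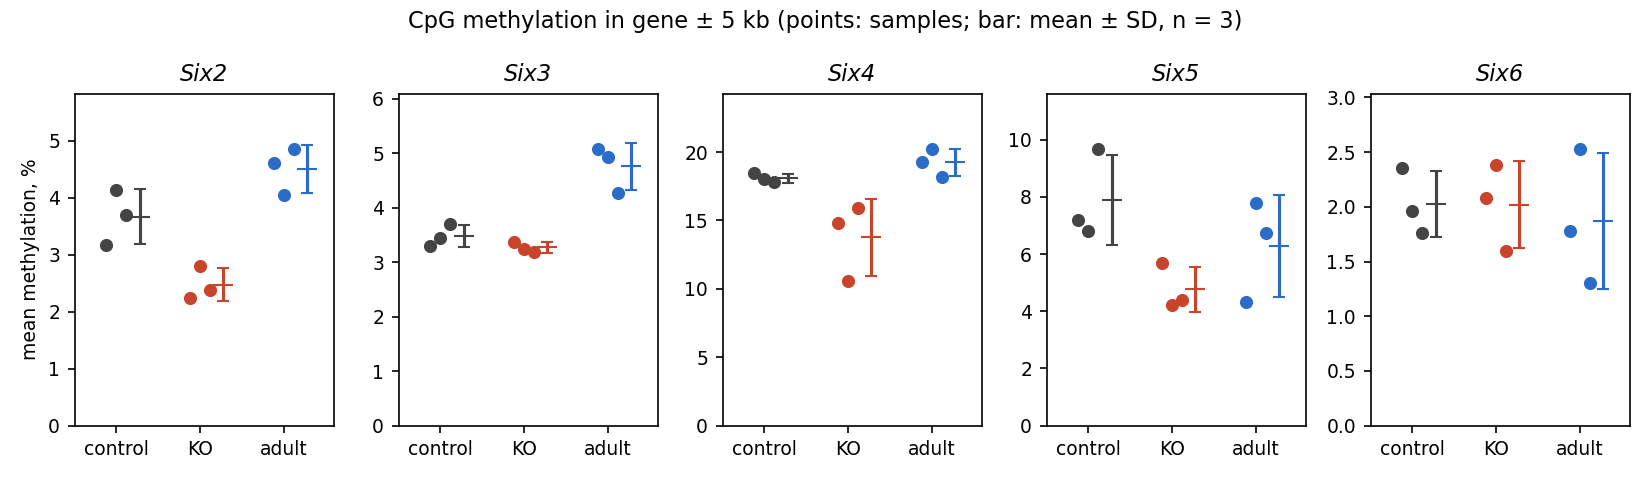
Mean CpG methylation in percent (vertical axis, starting at 0, with its own scale in each panel) over each Six-family gene with 5 kb on each side, with points for samples and bars for mean ± SD in 3 controls, 3 KO samples and 3 adults. KO points lie below all control points at Six2, Six4 and Six5, and adult points lie above all control points at Six3.

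Single positions were tested with a moderated quasi-binomial model over the genome, and calls needed both an adjusted p below 0.05 and a shift of 10 points or more. In KO 9 of 311 Six-family positions were lower and 0 higher, against 34.8% lower and 0.123% higher among all 380162 positions. Most Six-family positions start near 0: none of the 120965 genome positions with a control mean under 10% was called lower, since none could fall by 10 points, while 8.41% of those at 10% to 50% and 60.1% of those at 50% or more were. Six4 held 7 of the 9, which were all 7 of its tested positions at 50% or more, and Six2 held 2. Without KO 2 the count was 5, and with at least 25 points required it was 4.

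The methylated positions of Six4 fell into an upstream pair, a group of 4 about 11.5 kb inside the gene and 1 downstream. The position 73101846 fell furthest, from 90.8%, 93.1% and 91.5% in controls to 54.3%, 43.1% and 50% in KO samples (moderated model adjusted p = 1.05e-09 over all positions, 46 to 261 calls per sample). KO 2 was the lowest KO sample at each of the 7 positions, and the adults stayed at means of 83.3% to 95.5% there. At Six2 the position 85679326, inside the gene, fell from 49.9% to 21.7%, and 85690500, upstream of the gene, from 28.7% to 7.97%.

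**Figure D5:**
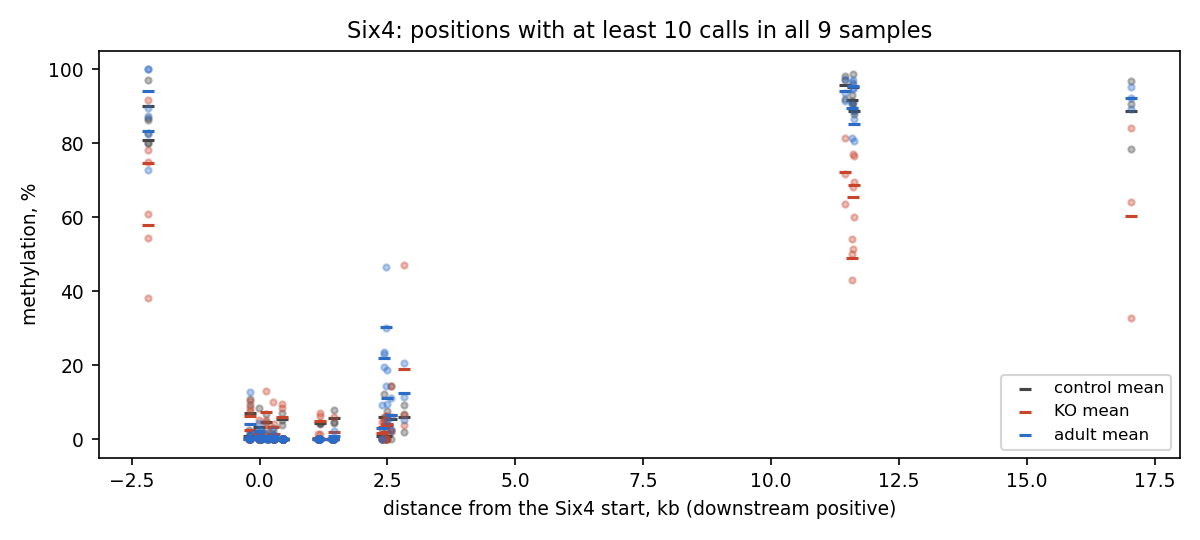
Methylation in percent (vertical axis) at each Six4 position that had 10 calls or more in every one of the 9 samples, against distance from the Six4 start in kb, with points for samples and dashes for group means. The 7 positions at 50% or more in controls have KO means of 49.1% to 74.8%, below the control means of 80.9% to 95.8%, and positions around the start are near 0.

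Inside the stretch with extra reads, positions that were methylated at 50% or more in controls lost about as much as those beside it. The 15 positions inside averaged 80.9%, 82.4% and 77.7% in controls, 59.9%, 53.0% and 66.1% in KO samples and 80.2% to 81.1% in adults, a KO difference of -20.7 points. The 123 positions in the flanks averaged 84.0% in controls and 59.3% in KO samples, a difference of -24.7 points. The 2 differences were not tested against each other.

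In adults 3 of 421 Six-family positions were higher than in newborn controls and 0 lower, against 1.69% higher and 1.78% lower among 704580 positions. Of genome positions with a control mean of 10% to 50%, 4.71% were lower in adults, and of those at 50% or more 2.66% were, while none of those under 10% could fall by 10 points. At Six3 the position 85619536, within the annotated gene but before the promoter window shown, was at 4.88%, 18.6% and 9.09% in controls and 31.0%, 64.3% and 32.5% in adults (moderated model adjusted p = 0.0161). At Six4 the position 73103752 was at 11.1%, 0% and 0% in controls and 85.7%, 100% and 96.7% in adults on 14 to 36 calls (adjusted p = 4.93e-06 by the same model), and 73110956 went from a mean of 0.813% to 30.3% (adjusted p = 0.0142). The count was 1 when control 1, control 3 or adult 2 was left out. Adults differ from the controls in age and in carrying no floxed alleles, and these cannot be told apart.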

How the data were processed

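RNA-seq and RRBS values were used as deposited by the authors: raw read counts per gene, and for each cytosine position a methylation percent with counts of methylated and unmethylated calls. The submitters' processing notes name Trim Galore, Bismark, STAR 2.4.1d, HTSeq 0.6.1 and the builds mm10 and GRCm38. The 5 lines of unassigned reads, 22.9% to 35.8% of all reads, were left out. Counts were fitted with edgeR 4.0.16 (quasi-likelihood, TMM, its filter on low counts, Benjamini-Hochberg over all 18132 genes tested), with DESeq2 1.42.0 as an alternative. Single positions entered where every one of the 6 samples had 10 calls or more, in a moderated quasi-binomial model (numpy 2.4.6, scipy 1.17.1). Its prior came from positions at 10% to 90% pooled methylation, a setting chosen on simulated data. RRBS depth was calls per 1000000 autosomal calls over positions read in all 9 samples, without the 1 deepest in 1000. Interval means were compared by exact permutation. Of 54741 positions in promoter windows on 3 chromosomes, 99.7% fell on a CpG of GRCm38.

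The members, gene lists and tests were chosen with earlier results of these data known. Genes named were the 5 members, list genes with an adjusted p under 0.05, neighbours within 500 kb of Six2 or Six3, and the 5 genes most like Six2 and Six3. Some genes that this rule names are not reported here. Others named were list genes that were not called or did not pass the filter. These cofactor, early nephron, muscle, forebrain, stroma and leukocyte genes were added after their values were seen. Alternatives were other scalings, filters, coverage minimums and flanks, a replicate block and each replicate left out. Equal replicate numbers did not pair the samples.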

Additional observations from a re-analysis of the deposited data

How the results depend on the processing

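Of the list genes 9 were higher and 12 lower. The higher count was 3 to 14 with single samples left out (14 without control 3) and 5 with the replicate block, where 0 cofactors were called. Lower neighbours of Six2 and Six3 were 0 to 1. Six-family positions lower in KO were 4 with at least 25 points and 5 to 11 with single samples left out, 5 without KO 2. Adult positions higher than control were 1 to 3 on leaving samples out and 0 with the replicate block.

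Same-numbered RNA samples had correlations of deviations from -0.236 to -0.0653, and in RRBS they were at most 0.00565, so the block rests on a number alone. With it the Six2 depth ratio was 1.80 (exact sign-flip p = 0.25, the smallest that 3 pairs allow). Interval methylation differences could not change direction with the block, since the mean of paired differences equals the difference of means.

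Interval methylation kept its direction in every setting run at Six2 and Six5, and at Six4 in KO. Six3 in KO was 0.20 points with at least 20 calls and 0.57 with pooled calls. Six4 in adults was -0.57 and -2.72 under those settings. Six6 in KO, at -0.01, was 0.0874 and 0.538 with at least 5 and 20 calls, 0.14 with pooled calls and -0.19 to 0.20 with single samples left out. Six6 in adults, at -0.16, was 0.58, 0.17 and 0.28 with at least 5 calls, at least 20 calls and 10 kb flanks, and -0.49 to 0.13 on leaving samples out. The causes were not tested.

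The depth ratios stayed above 1 at Six2 (1.71 to 1.87) and Six3 (1.29 to 1.41). Six4 was 0.921 over positions with a call in any sample and 0.994 to 1.02 with samples left out, and Six6 was 1.09 as a median over positions and 0.955 to 1.01. The raised stretch had a ratio of 1.81 with every group of positions weighing the same and 1.70 to 1.87 with samples left out, the highest without KO 3. The run of 7 bins stayed the longest with single samples left out, and without control 3 the next had 6. With bins of 10 kb the longest run was 10 bins, from 85630001 to 85780000, and the next had 3. KO 3, with a median of 4 calls per position, limits which positions could be tested.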
